A study of Rattus norvegicus with 8 samples.

Results

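The granins and the enzymes that cut and finish secretory peptides were examined in the right stellate ganglion, the sympathetic ganglion at the base of the neck that supplies much of the noradrenergic innervation of the heart. The set was given by name as 10 RefSeq records of 18314 in the deposited tables: the granins Chga (NM_021655), Chgb (NM_012526), Scg2 (NM_022669), Scg3 (NM_053856), Scg5 (NM_013175) and Vgf (NM_030997), the convertases Pcsk1 (NM_017091) and Pcsk2 (NM_012746), carboxypeptidase E (Cpe, NM_013128) and the amidating enzyme Pam (NM_013000). RNA was sequenced from 4 spontaneously hypertensive rats (SHR) and 4 Wistar rats, all male and 16 weeks old, untreated as far as the labels say, with 1 library per ganglion. The SHR is an inbred strain with genetic hypertension, and the Wistar rats served as normotensive controls. Wistar is an outbred stock and not the Wistar Kyoto line from which the SHR was bred, so that blood pressure and other differences of genetic background cannot be told apart between the groups. A whole ganglion holds satellite glia, Schwann cells, vessels and connective tissue beside the neurons.

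Neuropeptides and granins enter the secretory pathway as large precursors and are packed into dense core granules, which sympathetic neurons use to store and release peptides together with noradrenaline. Granins are acidic, calcium-binding proteins that aggregate in the trans-Golgi network and take part in granule formation, and several of them are themselves precursors of bioactive peptides. In the maturing granule the convertases cleave precursors after pairs of basic residues, Cpe removes the exposed basic residues, and Pam converts a terminal glycine into the amide that many neuropeptides carry.

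Expression of several of these genes is known to respond to cyclic AMP through the cAMP response element, a palindrome bound by CREB. The 250 bases upstream of the RefSeq start were taken from RefSeq for 8 of the 10 genes (build GRCr8). No window was available for Chga or Pcsk1, so neither was searched. The complete element TGACGTCA, searched on both strands, was present in 2 of the 8 windows, those of Scg2 and Vgf, against 1.59% of all 33469 rat windows, and its core TGACG, which the complete element contains, was present in 7 of the 8 against 18.2% of all. TATAAA was found in the Vgf window alone among the 8, against 12.9% of all windows. Scg2 and Vgf are shown because they carry the complete element (capitals) and yet lay at opposite ends of the expression range described below. In Scg2 the element covers bases 123 to 116 before the start (window chr9:88256867-88257116, minus strand), and in Vgf bases 90 to 83 (window chr12:25277021-25277270, minus strand).
Scg2: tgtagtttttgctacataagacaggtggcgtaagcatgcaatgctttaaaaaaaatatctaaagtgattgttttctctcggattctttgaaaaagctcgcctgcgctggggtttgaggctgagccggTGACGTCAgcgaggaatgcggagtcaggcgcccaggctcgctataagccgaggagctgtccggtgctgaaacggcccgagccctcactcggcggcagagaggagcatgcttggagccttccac
Vgf: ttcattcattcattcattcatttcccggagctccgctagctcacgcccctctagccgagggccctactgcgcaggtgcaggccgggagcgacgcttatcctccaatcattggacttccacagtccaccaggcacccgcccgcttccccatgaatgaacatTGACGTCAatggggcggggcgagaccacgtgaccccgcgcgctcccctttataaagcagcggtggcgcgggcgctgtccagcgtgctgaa
A match of letters is a description of the sequence, and binding was not measured.

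The libraries held between 25820299 and 35509074 estimated counts, and 13659 records had enough counts to be tested. All 10 records of the set were among them. Counts were scaled between libraries by TMM and are given as normalised counts at the mean library size. Levels of different genes are compared only as TPM, a share of all transcripts in the library on a fixed scale that also corrects for transcript length. Markers of sympathetic neurons were abundant in every ganglion: Dbh, which makes noradrenaline, lay between 3643 and 6766 TPM, and Th, the rate-limiting enzyme of catecholamine synthesis, between 1826 and 2397 TPM. Neither Th (log2 fold change −0.14, adjusted p = 0.459) nor the neuronal tubulin Tubb3 (0.00, adjusted p = 0.988) passed the threshold between the strains. Other markers of these neurons did differ: 2 records of Ddc were lower in SHR (−1.08 and −0.92, edgeR adjusted p = 0.000306 and 0.00162), and 0 records of the list were called higher. Gata3 did not pass (−1.02, adjusted p = 0.161). Nor did Dbh (−0.28, adjusted p = 0.324), although its normalised counts did not overlap between the strains, as for 10.6% of all records tested. Pnmt, the enzyme that defines adrenaline-making chromaffin cells, was near 0 at 0.166 to 0.769 TPM and could not be tested. Replicate numbers in the labels name separate samples, and p-values measure the spread between these ganglia.

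Chga fell in SHR, and it was the single record of the set that passed the test at an adjusted p under 0.05. Of all 13659 records tested, 389 (2.85%) passed, 231 of them lower in SHR (1.69%) and 158 higher (1.16%). Thus 1 of 10 members was lower and 0 were higher. The log2 fold changes of the set had a median of −0.11, with 6 below 0 and 4 above 0, against a median of 0.01 over all records tested. Their median absolute size was 0.18, against 0.21 over all records. In these bulk samples, fewer cells of a type and less RNA per cell cannot be told apart.

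**Figure D1:**
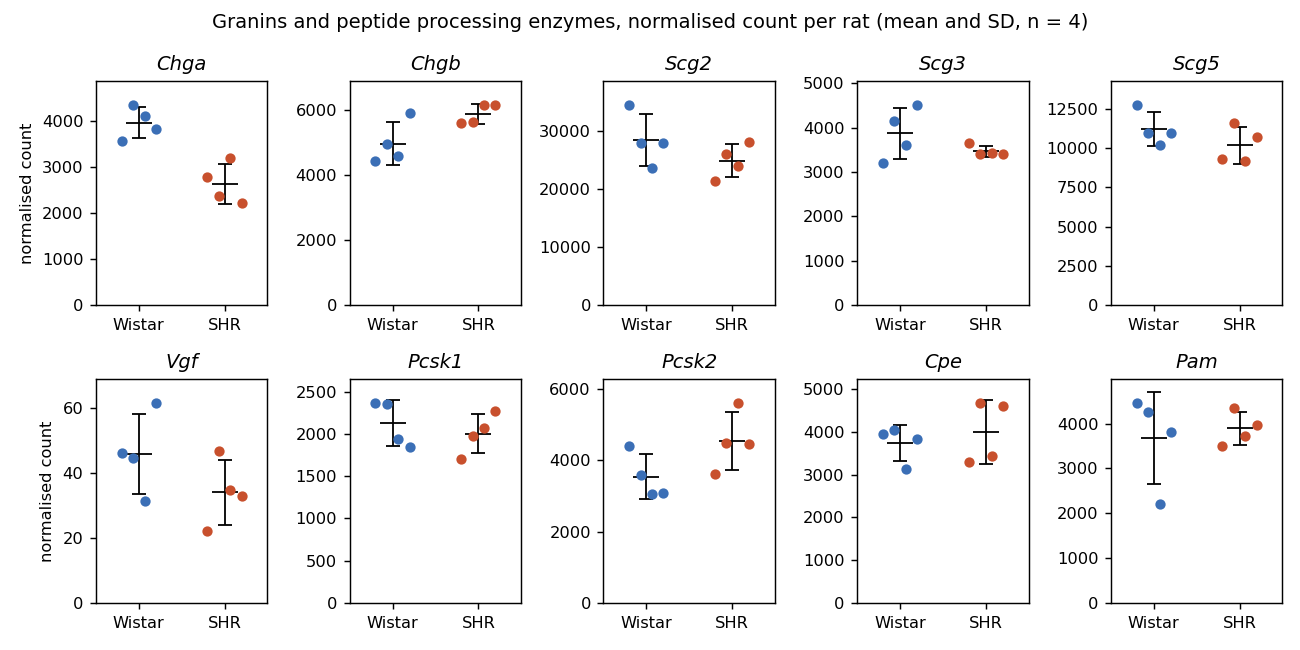
Normalised counts of the 10 transcripts in each rat; each point is 1 ganglion, Wistar in blue and SHR in orange, and bars give the mean and SD (n = 4 per strain), on linear axes from 0. The 4 SHR lie below all 4 Wistar rats for Chga, between 2219.8 and 3194, while the strains overlap in every other panel.

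Levels differed widely within the set. Scg2, the precursor of secretoneurin, and Scg5, the chaperone that accompanies the Pcsk2 precursor through the secretory pathway, were by far the most abundant. Scg2 averaged 517 ± 57.5 TPM (SD, n = 4) in Wistar and 449 ± 56.0 TPM in SHR, and Scg5 averaged 485 ± 25.4 and 435 ± 34.0 TPM. These 2 transcripts overlapped in level within each strain and together held between 65.0% and 73.1% of the TPM of the set in the 8 rats. A group of 4 transcripts followed in Wistar, with Cpe at 82.2, Scg3 at 80.8, Chga at 79.5 and Chgb at 77.2 TPM on average, and neighbours in this order overlapped between rats. Below them on average came Pcsk2 at 53.1, Pam at 38.8 and Pcsk1 at 20.1 TPM, each without overlap with its direct neighbours in this order. Pcsk2 did reach the range of Scg3, since in Wistar rat 1 it stood at 62.8 TPM and Scg3 at 62.3 TPM. Vgf, a nerve growth factor inducible peptide precursor, was last at 0.899 ± 0.229 TPM in Wistar and 0.707 ± 0.208 TPM in SHR.

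In SHR the order differed in its middle part. Chgb followed Scg2 and Scg5 at 90.8 ± 11.04 TPM and Chga stood at 53.3 ± 12.01 TPM, below Pcsk2 at 68.6 ± 17.4 TPM. From Chgb down to Chga the ranges of direct neighbours overlapped, but Chgb (81.5 to 105 TPM) lay wholly above Scg3 (65.7 to 79.6 TPM) and Chga (44.7 to 70.3 TPM). The set as a whole took between 0.1304% and 0.1511% of all TPM in Wistar and between 0.1143% and 0.1424% in SHR.

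**Figure D2:**
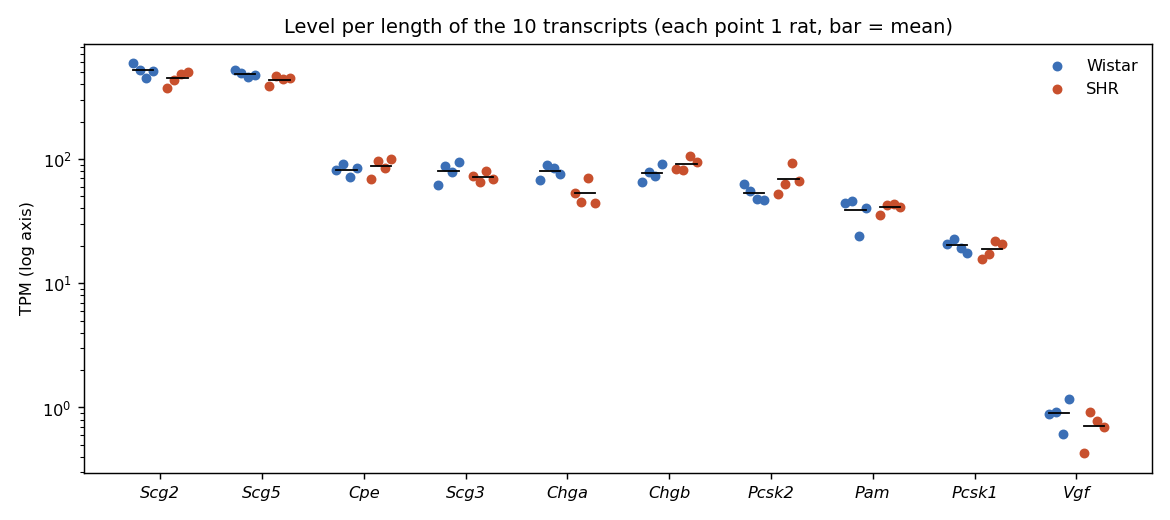
TPM of each transcript in each rat on a log axis, ordered by the Wistar mean; each point is 1 rat and the bar is the mean of 4. Scg2 and Scg5 lie at or above 374 TPM in every rat and Vgf at or below 1.17 TPM, and in SHR the Chga points drop below those of Chgb.

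Among the granins, Chga encodes chromogranin A, the precursor of catestatin and vasostatins, of which catestatin restrains nicotinic catecholamine release. Its normalised counts in Wistar rats 1 to 4 were 3574, 4356, 4124 and 3831, and those in SHR 1 to 4 were 2788, 2372, 3194 and 2219.8. The lowest Wistar rat stood above the highest SHR, so the groups did not overlap, which was so for 10.6% of all records tested. Chga averaged 3971 ± 341 in Wistar and 2644 ± 439 in SHR (SD, n = 4). It was 1.502-fold lower in SHR, a log2 fold change of −0.59 (SE 0.126, 95% interval −0.87 to −0.31, adjusted p = 0.0369 in edgeR). The call was near the threshold: with 1 rat left out at a time the adjusted p stayed under 0.05 in 2 of 8 fits (without Wistar rat 1 or without SHR rat 3) and ranged from 0.0205 to 0.142, and limma on log2 TPM gave −0.59 with adjusted p = 0.0771. The estimated counts of Chga were fractional in all 8 rats, which means that the quantification shared some of its reads with other records, while the other 9 members had whole counts throughout (within 0.005 of a whole number).

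Chgb, which encodes chromogranin B, the other main acidic granin of catecholamine granules, lay on the opposite side of 0. Wistar rats 1 to 4 had 4452, 4959, 4585 and 5921 normalised counts and SHR 1 to 4 had 5596, 5652, 6153 and 6164. Wistar rat 4 reached into the SHR range and the other 3 Wistar rats lay below it. The log2 fold change was 0.24 (SE 0.104, 95% interval 0.01 to 0.47), and it did not pass over all records (adjusted p = 0.274).

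Scg2 was measured at 34492, 27941, 23646 and 28003 normalised counts in Wistar and at 21467, 26062, 24031 and 28127 in SHR. The highest Wistar and the lowest SHR were both replicate 1, and the other 6 rats were interleaved. The log2 fold change was −0.19 (SE 0.127, adjusted p = 0.466). Scg5 showed a similar layout, with 12744, 10992, 10195 and 10942 in Wistar and 9302, 11601, 9161 and 10685 in SHR. Here too the groups overlapped, with SHR rats 1 and 3 below every Wistar rat (−0.14, SE 0.106, adjusted p = 0.535).

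Scg3, a granin that binds Chga and cholesterol-rich granule membrane, had 3203, 4155, 3615 and 4509 normalised counts in Wistar and 3652, 3402, 3422 and 3401 in SHR. The SHR were tightly grouped and lay inside the Wistar range (−0.16, SE 0.111, adjusted p = 0.499). Vgf was barely expressed, with 22 to 65 reads per library. Its normalised counts were 46.1, 44.7, 31.4 and 61.7 in Wistar and 22.3, 46.7, 34.8 and 32.9 in SHR. These ranges overlapped widely, and the 95% interval of its log2 fold change ran from −1.18 to 0.31 (adjusted p = 0.539). At this depth a fall of 1 on the log2 scale could not be told from none for Vgf, whereas the intervals of the other 9 members stayed within 1 in both directions.

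The convertases were both detected, with Pcsk2 the more abundant. Pcsk2, which works late and in mature granules, had 4404, 3582, 3042 and 3094 normalised counts in Wistar and 3626, 4475, 5609 and 4454 in SHR. Wistar rat 1 lay within the SHR range, and the other 3 Wistar rats lay below all SHR. Its log2 fold change was 0.36 (SE 0.156, 95% interval 0.02 to 0.71), which did not pass over all records (adjusted p = 0.277). Without replicate 1 of both strains, a choice made after seeing the data, the value was 0.58 with edgeR adjusted p = 0.0233. For Pcsk2 these were the highest Wistar rat and the lowest SHR, so leaving them out widens the difference by construction and is no evidence for it.

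Pcsk1, which cleaves many precursors first, had 2367, 2354, 1937 and 1847 normalised counts in Wistar and 1705, 1969.6, 2065 and 2273 in SHR. The strains were interleaved, with a log2 fold change of −0.09 (SE 0.123, adjusted p = 0.764). Unlike its partner, Pcsk1 therefore gave an interval on both sides of 0, from −0.36 to 0.19.

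Cpe and Pam act after the convertases, and both gave intervals on either side of 0. Cpe had 3947, 4036, 3127 and 3835 normalised counts in Wistar and 3289.6, 4680.1, 3433 and 4597 in SHR. SHR rats 2 and 4 stood above every Wistar rat, and SHR rats 1 and 3 lay within the Wistar range (0.10, SE 0.141, adjusted p = 0.765). Pam had 4464, 4255, 2198 and 3817 in Wistar and 3504, 4348, 3731 and 3978 in SHR. Wistar rat 3 stood far below the other 7 rats, and the log2 fold change of 0.08 (SE 0.194, adjusted p = 0.874) became −0.09 without it.

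**Figure D3:**
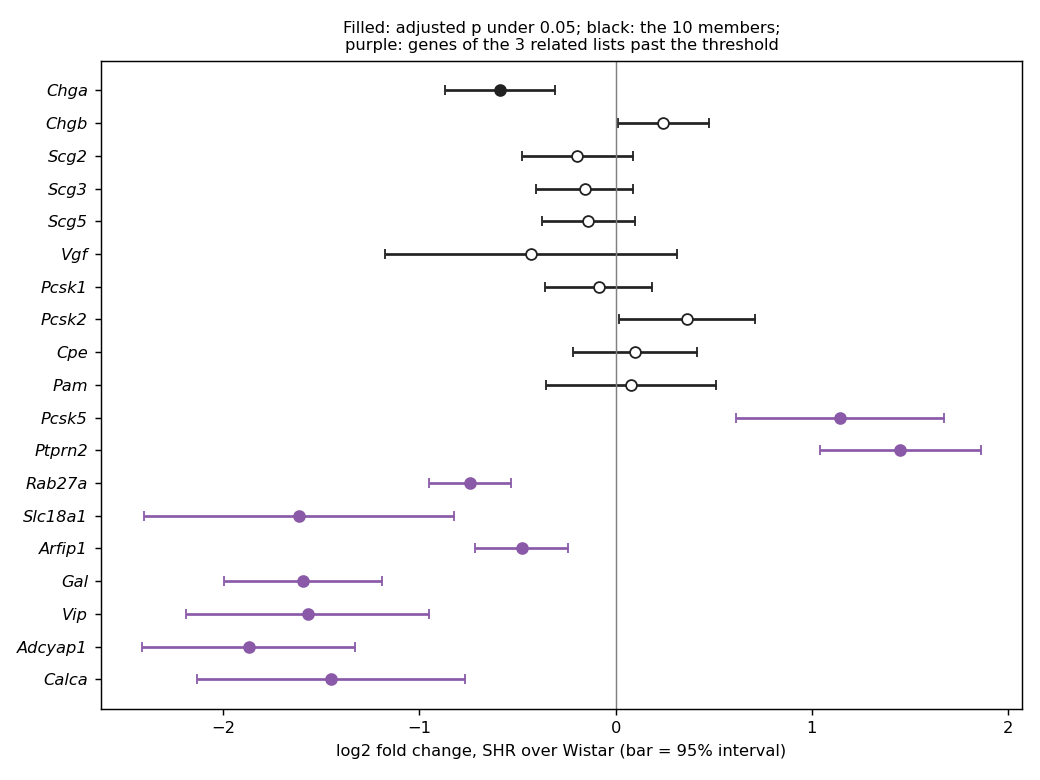
Log2 fold changes of SHR over Wistar with 95% intervals for the 10 members (black) and for the genes of the related lists that passed the threshold (purple); filled points have an adjusted p under 0.05. Chga at −0.59 is the filled member, and the intervals of Chgb and Pcsk2 lie just above 0 although neither passed over all records.

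A few rats were low or high for many members together. Wistar rat 3 was the lowest of its strain for 6 of the 10 transcripts and SHR rat 1 for 7, while Wistar rat 1 was the highest of its strain for 5. Before adjustment, 3 members had p under 0.05 in edgeR (Chga, Chgb and Pcsk2), the last 2 higher in SHR. By p, Chgb ranked only 2050 and Pcsk2 only 2071 among the 13659 records tested, so unadjusted values of this size were common. DESeq2 called 780 of 13630 records (5.72%) and likewise 1 member, Chga, at −0.59 with adjusted p = 0.00179.

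Ratios of functional partners were compared within each rat, since a ratio of TPM inside a library does not depend on the scaling between libraries. Of 6 ratios, 3 did not overlap between the strains. Chga per Chgb was 1.05, 1.14, 1.15 and 0.828 in Wistar and 0.645, 0.551, 0.669 and 0.475 in SHR. The mean fell from 1.04 ± 0.149 to 0.585 ± 0.0893 (SD, n = 4), with Chga the lower of the pair in every SHR and the higher in 3 of 4 Wistar rats.

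Pcsk1 per Pcsk2 was 0.332, 0.413, 0.403 and 0.380 in Wistar and 0.298, 0.274, 0.235 and 0.314 in SHR, with every SHR below every Wistar rat. Scg5 per Pcsk2, the chaperone against its enzyme, was 8.22, 8.87, 9.61 and 10.2 in Wistar and 7.39, 7.40, 4.72 and 6.79 in SHR, again without overlap. For each of these 3 ratios the two-sided exact permutation test gave p = 0.0286, the smallest that 4 against 4 rats allow, and p = 0.0571 after Benjamini-Hochberg adjustment over the 6 ratios, so 0 of 6 passed. The ratios are not independent, because Pcsk2 and Chga each enter more than 1 of them.

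The remaining ratios overlapped. Scg3 per Chga was 1.02 ± 0.155 in Wistar and 1.38 ± 0.1796 in SHR (exact permutation p = 0.0571, adjusted 0.0857). Pcsk1n, which encodes proSAAS, an inhibitor of the Pcsk1 enzyme, stood at 8.38 ± 1.24 per Pcsk1 in Wistar and 10.6 ± 0.8289 in SHR (exact permutation p = 0.0857, adjusted 0.103). Cpe per Pam was 2.21 ± 0.498 and 2.14 ± 0.236 (exact permutation p = 0.8286). The Wistar spread of this last ratio came largely from rat 3, at 2.95.

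**Figure D4:**
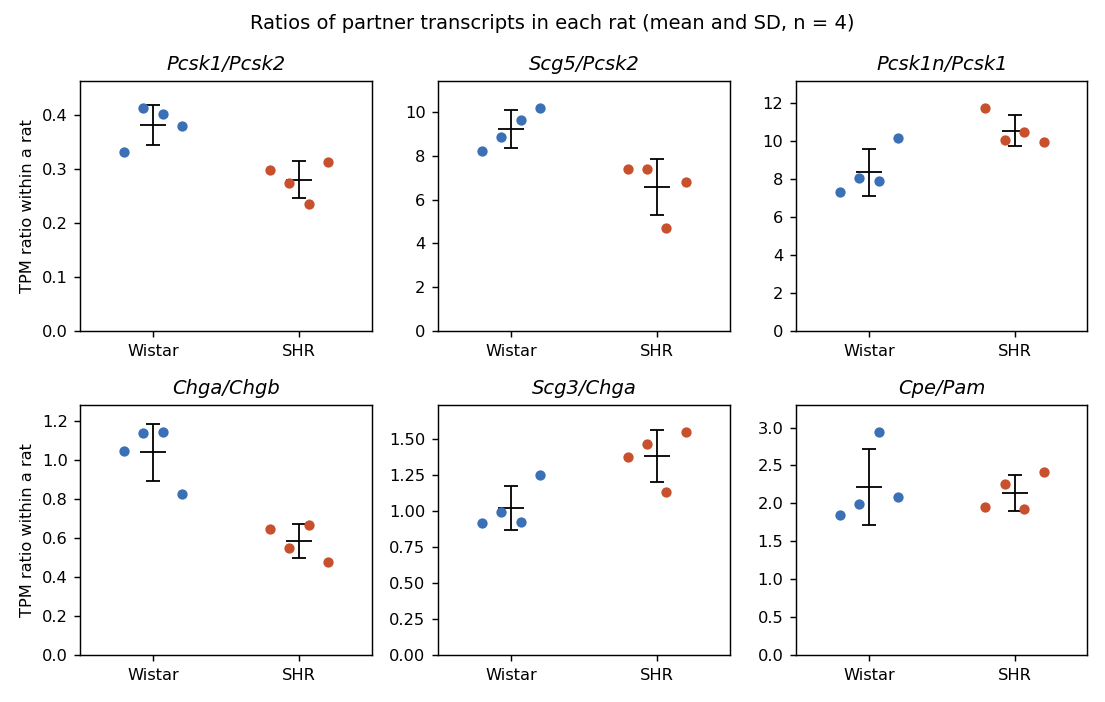
TPM ratios of partner transcripts within each rat; each point is 1 rat and bars give the mean and SD (n = 4 per strain), on linear axes from 0. The strains are separate for Pcsk1/Pcsk2, Scg5/Pcsk2 and Chga/Chgb and overlap for the other 3 ratios.

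Set against abundant neuronal transcripts, Chga showed the same direction. It stood at 0.781% ± 0.0907 of Tubb3 in Wistar and 0.524% ± 0.0966 in SHR on the TPM scale, without overlap. Per Th it was 3.60% ± 0.552 and 2.64% ± 0.474, with overlapping rats, and per Scg2 it was 15.6% ± 3.16 and 12.003% ± 2.79, also overlapping. These 3 ratios were not tested.

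Markers of other cells were read beside the Chga result. Slc18a1, the vesicular monoamine transporter typical of chromaffin and small intensely fluorescent cells, also fell, from 621 ± 320 to 203 ± 60.1 normalised counts. Of the 4 markers listed for those cells, 3 could be tested and 2 were lower (Slc18a1 and Chga itself), while Chgb was not. Their summed level was 150 to 179 TPM in Wistar and 131 to 179 TPM in SHR. Most of that sum is Chga and Chgb, at a mean of 66.4 and 84.0 TPM, against 6.71 for Slc18a1 and 0.433 for Pnmt. The sum therefore mainly restates these members and is no separate measure of those cells. Within Wistar, Slc18a1 was highest in rat 1 at 1040.5, the rat with the lowest Chga. A single rat shows no relation between these transcripts, and none was tested. Of 13 sympathetic neuron records tested, 2 were lower, both of Ddc, beside 1.69% of all records tested. The summed level of these markers was 28783 to 30909 TPM in Wistar and 24157 to 30478 TPM in SHR. Of 10 satellite glia records tested, 1 Apoe record was higher (summed level of the list 920 to 1660 TPM in Wistar and 859 to 1172 TPM in SHR). This record averaged 0.774 TPM in Wistar and 97.4 TPM in SHR. The most abundant Apoe record went the other way, from 511 to 266 TPM, and did not pass (log2 fold change −0.99, edgeR adjusted p = 0.328). Both had fractional counts in most rats, so the call does not show that Apoe as a gene was higher. The records tested numbered 11 for Schwann cell, 5 for endothelial, 6 for fibroblast, 6 for macrophage, 4 for adipocyte and 4 for striated muscle markers. Of these, 0 passed in edgeR, 5 were lower at an unadjusted p under 0.05, and 2 were lower in DESeq2. Schwann cell markers held 3 of the 5, all records of the myelin gene Mbp (log2 fold change −0.60, −0.74 and −0.45), with fractional counts in every rat. The median of the Schwann cell list was −0.31, and DESeq2 called 1 of its records lower and 0 higher. Unadjusted values just under 0.05 were common, since Chgb at an edgeR p of 0.0411 ranked only 2050 among all 13659 records tested. The part of cell composition in the Chga result was not tested.

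Among 15 other peptide processing enzymes and inhibitors, all tested, 1 was higher in SHR and 0 were lower (median log2 fold change 0.10). At an unadjusted p under 0.05, 2 were higher and 0 lower in edgeR, and DESeq2 also called 1 higher and 0 lower. The one called was Pcsk5, a convertase of the same family with broader tissue distribution. Pcsk5 lay between 69.2 and 121 normalised counts in Wistar and between 150.5 and 241 in SHR, a log2 fold change of 1.14 (SE 0.238, adjusted p = 0.0324). This was 2.21-fold, but at 0.746 TPM in Wistar and 1.62 TPM in SHR its level was far below that of Pcsk1 or Pcsk2. The call was lost in 6 of 8 fits that left out a rat, with adjusted p up to 0.104. The most abundant of the list did not pass: the lysosomal protease Ctsl (log2 fold change 0.01, adjusted p = 0.963), Pcsk1n (0.10, adjusted p = 0.664), Prepl (0.08, adjusted p = 0.770), the copper transporter Atp7a that supplies Pam (0.11, adjusted p = 0.807) and the aminopeptidase Npepps (0.14, adjusted p = 0.550).

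Of 33 records tested for dense core granule membrane, sorting and release, 1 was higher and 3 were lower (median log2 fold change −0.07). Ptprn2, encoding the granule membrane protein phogrin, ranged from 1351 to 2204 normalised counts in Wistar and from 3594 to 5628 in SHR. It was 2.73-fold higher (log2 fold change 1.45, SE 0.184, adjusted p = 0.00222). Rab27a, a small GTPase of granule docking, was 1604 to 1702 in Wistar and 919 to 1101 in SHR, a log2 fold change of −0.74 (SE 0.0933, adjusted p = 0.00219). Both kept their calls in all 8 fits that left out a rat, and both had fractional counts in every rat.

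The other 2 calls of that list were Slc18a1 (log2 fold change −1.61, adjusted p = 0.0422) and Arfip1, which acts at the Golgi in granule biogenesis (−0.48, adjusted p = 0.0438). Slc18a1 kept its call in 2 of 8 fits without 1 rat and Arfip1 in 0 of 8. The abundant members of the list did not pass, among them Cyb561, which passes electrons into the granule for Dbh and Pam (0.13, adjusted p = 0.492), Resp18 (0.14, adjusted p = 0.593), Rab3b (−0.12, adjusted p = 0.575), Slc18a2, the main neuronal amine transporter (−0.20, adjusted p = 0.421), and Dbh (−0.28, adjusted p = 0.324).

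Neuropeptide precursors are the substrates of the convertases, Cpe and Pam. Of 43 neuropeptide precursor records, 23 had enough counts to be tested. In SHR 4 of them were lower and 0 higher (median log2 fold change −0.23). At an unadjusted p under 0.05 in edgeR, 6 were lower and 2 higher, and DESeq2 called 5 lower and 0 higher after adjustment. Gal, the galanin precursor, ranged from 188 to 275 normalised counts in Wistar and from 71.4 to 87.5 in SHR (log2 fold change −1.59, SE 0.181, adjusted p = 0.00128). Adcyap1, the precursor of the peptide PACAP, ranged from 174 to 378 in Wistar and from 70.1 to 90.3 in SHR (−1.87, SE 0.243, adjusted p = 0.00260). Neither precursor overlapped between strains, and both kept their calls in all 8 fits without 1 rat.

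Vip, the precursor of vasoactive intestinal peptide, was 4846 to 11711 in Wistar and 1669 to 3199.8 in SHR (log2 fold change −1.57, SE 0.278, adjusted p = 0.0143). A Calca record (NM_001033955), of the gene for calcitonin and its related peptide, was 224 to 480 in Wistar and 71.5 to 176 in SHR (−1.45, SE 0.307, adjusted p = 0.0352). Calca kept its call in 2 of 8 fits without 1 rat and its counts were fractional, since several records share its reads. Vip kept its call in 7 of the 8. Another Calca record, at 14.6 TPM in Wistar and 5.49 TPM in SHR, lay in the same direction but did not pass (log2 fold change −1.37, edgeR adjusted p = 0.0677).

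The dominant precursor, Npy, at 16564 TPM in Wistar and 18985 TPM in SHR, did not pass (log2 fold change 0.21, adjusted p = 0.467), nor did Adm (−0.19, adjusted p = 0.431) or Sst (0.40, adjusted p = 0.394). For Penk the fitted value of −1.75 (adjusted p = 0.208) rested on Wistar rat 1 at 11442 normalised counts, against 1113 to 2878 in the other 7 rats, and it was −0.53 without that rat. Over the 3 lists, 2 of 71 tested records were higher and 7 lower, beside 2.85% of all records in either direction.

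**Figure D5:**
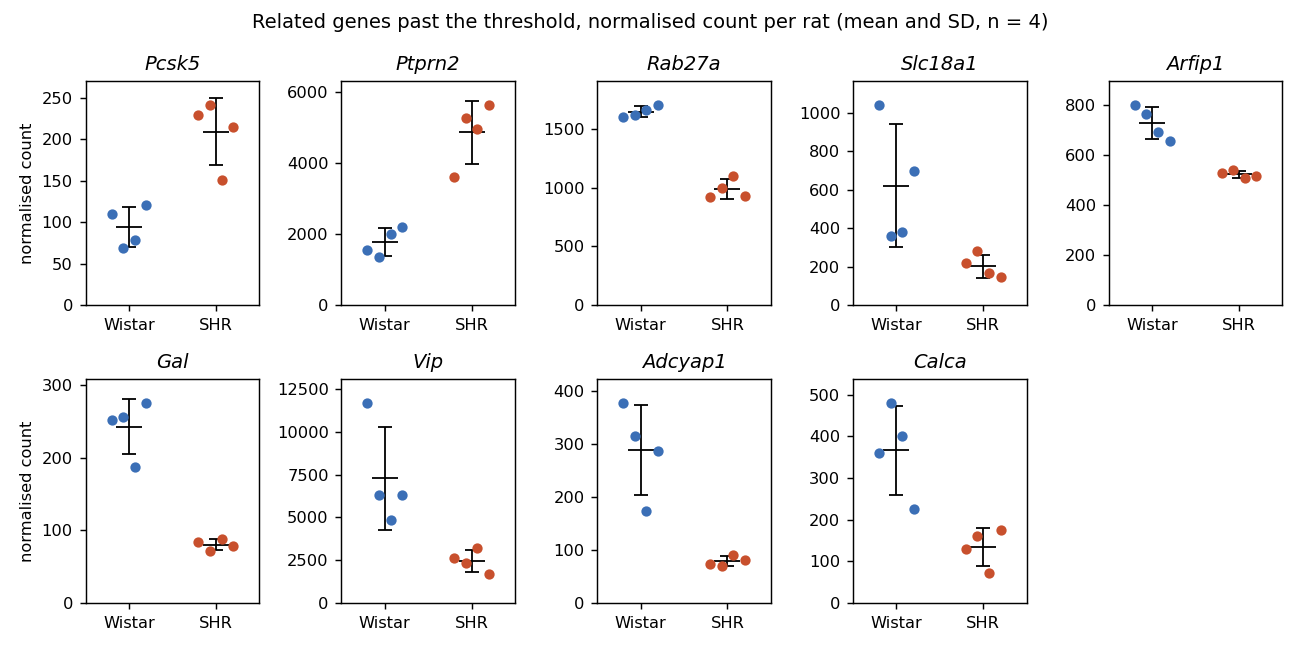
Normalised counts in each rat of the 9 related genes past the threshold; each point is 1 rat and bars give the mean and SD (n = 4 per strain), on linear axes from 0. Pcsk5 and Ptprn2 are higher in all 4 SHR than in any Wistar rat and the other 7 are lower.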

How the data were processed

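Total RNA of right stellate ganglia from 4 Wistar rats and 4 SHR was sequenced as 1 library per rat. The authors quantified reads with Salmon 0.8.2 (FastQC 0.11.7 for quality, build rn6, per the labels). The labels name a stranded mRNA kit, while the study's methods describe amplified cDNA. The deposited files give for each RefSeq record an expected count, estimated by Salmon and often fractional, with no scaling across libraries, and a TPM, both made by the authors. Records were paired with symbols through RefSeq (GRCr8), which matched 17360 of 18314.

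The counts were rounded and tested per record with edgeR 4.0.16 (TMM, default filter, quasi-likelihood test, Benjamini-Hochberg over 13659 records, threshold 0.05; R 4.3.3). A normalised count is the TMM-scaled count at the mean library size. Ratios were compared by exact permutation (scipy 1.17.1). Alternatives were DESeq2 1.42.0, limma 3.58.1 on log2(TPM + 0.5), other scalings, filters, gene sums, a replicate block and leaving rats out. The fit was tested on simulated data. No libraries were duplicates, and same-numbered rats did not deviate together (correlation −0.290 to −0.0381).

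The members, lists and ratios were chosen with earlier results of these data known. The text names all 10 members and, from 3 related lists, every record past the threshold and the 5 with the highest TPM.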

Additional observations from a re-analysis of the deposited data

Results flagged for a closer look

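In groups of 4 rats, a rat was singled out when its gap to the nearest other exceeded the Dixon 95% limit as a share of the range of the group. Of 78 groups 5 met this, where chance alone is expected to give 3.9. Among the members this was Scg3 in SHR rat 1, at 3652 normalised counts against 3401 to 3422 in the other SHR, a small gap in a tight group. For the related genes it was Ctsl in SHR rat 3 at 6032 (others 7532 to 7723), Penk in Wistar rat 1 at 11442 (others 1113 to 2878), and Dbh in both strains. Dbh stood at 449800 in Wistar rat 1 (others 329937 to 344002) and at 241228 in SHR rat 1 (others 315337 to 325679).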

How the results depend on the processing

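Chga stayed lower in SHR under every alternative run (log2 fold change −0.50 to −0.69), but the number of members called went from 1 to 0 with limma on log2 TPM and ranged from 0 to 1 when 1 rat was left out. DESeq2 called 780 records, and 799 with a length offset, against 389. Leaving out 1 rat gave 237 to 454 records, and 5 to 7 records of the 3 related lists against 9, not always drawn from those 9. Without replicate 1 of both strains, chosen after seeing the data, 1068 records, 8 records of the related lists and 2 members (Chga and Pcsk2) passed. The numbers of the labels do not pair the rats. With the replicate block 132 records, 5 records of the related lists and 0 members passed (Chga −0.60, edgeR adjusted p = 0.134). The exact sign-flip test of the ratios over 4 pairs cannot reach the threshold. Of the 6 ratios, 0 to 4 passed when 1 rat was left out, 4 of them without Wistar rat 4 (adjusted exact permutation p = 0.0429). For Pcsk1n per Pcsk1, Wistar rat 4 at 10.2 had reached into the SHR range of 9.97 to 11.8. Leaving that rat out separates the strains by construction and is no evidence for a difference. The smallest exact p that 4 against 3 rats allow is 0.0286. Only values near 0 turned sign: Ctsl (−0.0010 with limma, −0.0186 to 0.103 without 1 rat), Pam (−0.0917 to 0.181 without 1 rat), Atp7a (−0.0146 to 0.249), Pcsk1 (0.0328 without replicate 1 of both strains) and Cpe per Pam (0.0447 as a median, −0.114 to 0.111 without 1 rat). The causes were not tested. With 4 rats a strain, precision for single members is limited, and Vgf is limited by its 22 to 65 reads.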

Other observations

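The balance of the vesicular monoamine transporters differed in the direction of Slc18a1. On the TPM scale Slc18a1 was 1.18% ± 0.648 (SD, n = 4) of Slc18a2 in Wistar and 0.447% ± 0.159 in SHR. Every SHR lay below every Wistar rat, but only narrowly: as a plain ratio, Wistar rat 2 was at 0.00615 and SHR rat 2 at 0.00613. The highest values were those of Wistar rats 1 and 4, at 0.0201 and 0.0138. The ratio was not tested.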
